A study of Mus musculus with 4 samples.

Results

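Conventional DCs (cDCs) of the adipose tissue were followed through 10 genes, which are markers or regulators of their subsets. The rows with the gene names Clec9a, Xcr1, Batf3, Irf8 and Itgae (cDC1), Cd209a (cDC2), Zbtb46 and Flt3 (all cDCs) and Fscn1 and Cacnb3 (mature, migratory DCs) were taken from the deposited tables, and 10 of the 35869 listed genes were found this way. The rows were matched by gene name alone. The question was how the transcripts of each DC subset differed between the diets.

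RNA-seq was performed on CD45+ cells, the leukocyte fraction, of the epididymal white adipose tissue (eWAT) of male WT C57BL/6 mice. The ND group (2 samples) was kept on a normal diet, and the HFD group (2 samples) was fed a high-fat diet, both from 8 weeks of age for 12 weeks. Both groups shared genotype, sex, tissue and cell enrichment, which used CD45 microbeads on the stromal vascular fraction. The number of mice behind each library was not given, so the p-values measure the spread between these samples, which may be technical.

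cDCs take up antigen, carry it to lymph nodes and present it to T cells. The cDC1 subset depends on the transcription factors Irf8 and Batf3 and presents antigen of dead cells to CD8 T cells. The cDC2 subset depends more on Irf4 and mainly serves CD4 T cells. Both subsets arise from precursors that need the cytokine receptor Flt3, and both switch on a common program when they mature and migrate.

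The values were TPM, a measure of transcript level that is corrected for gene length and scaled to the same total in every sample. Between 15612 and 17255 genes reached 1 TPM in a sample, and 1 read per kb of transcript was worth 0.0607 to 0.0711 TPM. The libraries held transcripts of cells other than leukocytes, and the HFD samples differed in these. The summed TPM of 6 fibroblast genes was 522.2 and 561.1 in ND and 2836.6 and 5686.2 in HFD (replicates 1 and 2, the order used throughout). The sum of 6 spermatid genes was 1752.5 and 1764.7 in ND but 6506.8 and 2005.7 in HFD. Ptprc, which encodes CD45, was at 54.5 and 59.4 TPM with ND, against 55.3 and 53.7 TPM with HFD. The part of these transcripts in the results on DC genes was not tested.

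Of the 10 genes, all of which passed the filter of at least 1 TPM in at least 2 samples, 3 fell with HFD (Cd209a, Batf3 and Zbtb46), 0 rose and 7 were not called. A call required an adjusted p-value under 0.05 by limma on log2(TPM + 1) and a change of at least 1.5-fold. Among all 16849 genes tested, 10.3% were called lower and 8.08% were called higher, or 18.4% in either direction. In 8 of the 10 genes both HFD values lay below both ND values, which held for 32.8% of all genes, and in 0 both lay above, against 34.1% of all genes. By the adjusted p-value alone, without the fold limit, 4 members passed (with Irf8 added), against 27.3% of all genes. The median log2 fold change (HFD minus ND) was -0.57 over the 10 genes and 0.06 over all genes. In bulk samples, fewer cells of a type and less RNA per cell cannot be told apart.

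**Figure D1:**
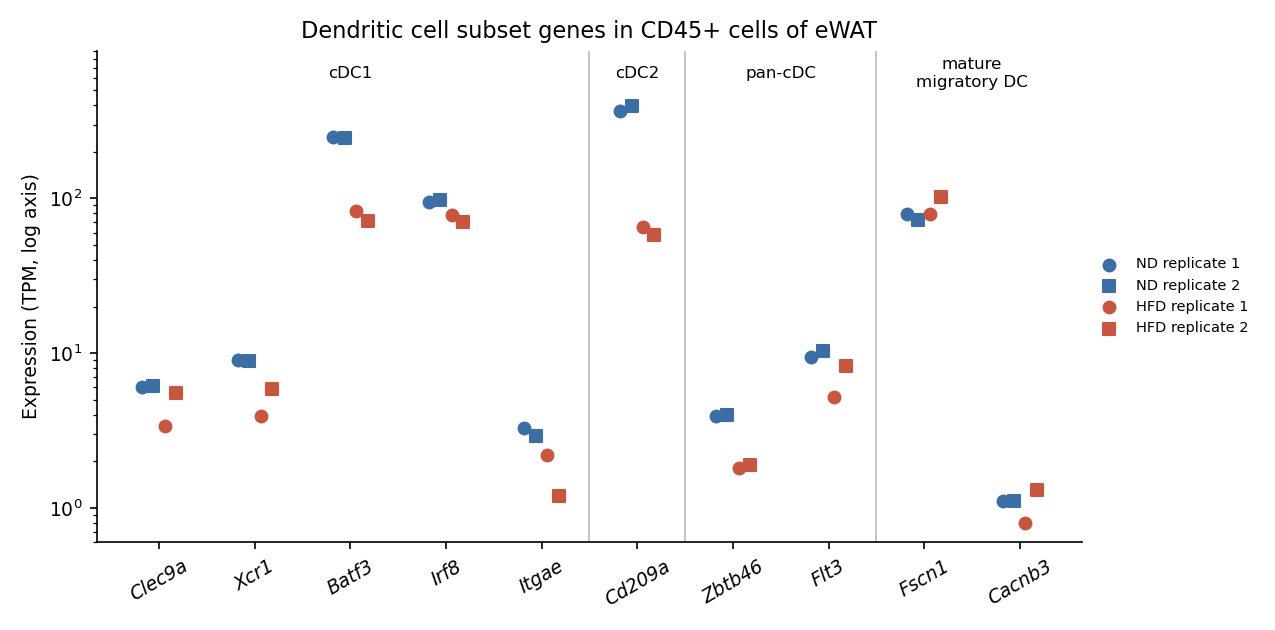
TPM (log axis) of each of the 10 genes in the 2 ND and 2 HFD samples, one point per sample, grouped by subset. Cd209a and Batf3 show the widest gaps between the diets, whereas the Fscn1 and Cacnb3 points of both diets overlap.

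Cd209a, a C-type lectin of the DC-SIGN family that marks cDC2 and monocyte-derived DCs, had the largest change of the 10. It was at 367.2 and 393.0 TPM with ND, against 65.0 and 58.0 TPM with HFD. Both HFD values were far below both ND values, with means of 380.1 ± 18.2 and 61.5 ± 4.95 TPM (SD, n = 2 each). The ND mean was thus 6.18 times the HFD mean, and the log2 fold change was -2.61 (SE 0.08, adjusted p = 0.00423, limma). The gene lies on the minus strand of chromosome 8, from base 3743397 to 3748984 in GENCODE vM21 (mm10).

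Batf3, the AP-1 family factor required for cDC1 development, was the other gene with a large change. Its level was 248.1 and 244.2 TPM with ND, against 82.3 and 71.8 TPM with HFD, again without overlap. HFD samples held 31.3% of the ND mean, a log2 fold change of -1.67 (SE 0.08, adjusted p = 0.00563, limma). Batf3 is also used by other leukocytes, T cells among them, and it stood 41.4 and 40.0 times above Clec9a in ND but 24.2 and 13.1 times above it in HFD. It lies on chromosome 1, bases 191097847 to 191108945, plus strand.

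Zbtb46, a zinc finger factor that marks cDCs and their precursors, was low and fell by less. It was at 3.9 and 4.0 TPM with ND, against 1.8 and 1.9 TPM with HFD, with each diet's replicates within 0.1 TPM of each other. HFD samples held 46.8% of the ND mean (log2 fold change -0.80, SE 0.09, adjusted p = 0.0173, limma). Unlike the other called genes, Zbtb46 lost its call under some alternatives: its adjusted p was 0.0903 with the replicate number as a block and 0.06 after quantile normalization, and at a pseudocount of 5 its log2 change of -0.39 was below the fold required. On the log2(TPM + 1) scale Zbtb46 also did not reach a 2-fold limit, although its ND mean was 2.14 times its HFD mean in TPM. A filter on a mean TPM of at least 5 left it untested. Left out in turn, each ND sample ended every call, leaving 0 calls in any gene at adjusted p-values of 0.167 for Batf3 and Cd209a without ND replicate 1 and 0.161 without ND replicate 2, where the ND sample that remained was assumed to vary like the HFD samples.

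The windows before the RefSeq starts of these 3 genes are shown because they are the members whose level changed. Each is the 250 bases before the start (GRCm38.p6), read on the strand of the gene. Capitals mark a motif match.

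Batf3, chr1:191098164-191098413, plus strand: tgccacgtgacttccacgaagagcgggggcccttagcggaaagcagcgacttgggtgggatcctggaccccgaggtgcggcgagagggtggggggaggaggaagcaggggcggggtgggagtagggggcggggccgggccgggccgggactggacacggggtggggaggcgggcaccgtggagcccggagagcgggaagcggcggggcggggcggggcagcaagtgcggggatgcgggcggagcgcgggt
Cd209a, chr8:3748985-3749234, minus strand: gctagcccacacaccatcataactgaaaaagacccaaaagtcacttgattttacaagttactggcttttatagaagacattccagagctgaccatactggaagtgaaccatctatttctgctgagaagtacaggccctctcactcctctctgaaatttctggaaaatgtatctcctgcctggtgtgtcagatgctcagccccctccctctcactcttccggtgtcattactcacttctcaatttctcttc
Zbtb46, chr2:181424389-181424638, minus strand: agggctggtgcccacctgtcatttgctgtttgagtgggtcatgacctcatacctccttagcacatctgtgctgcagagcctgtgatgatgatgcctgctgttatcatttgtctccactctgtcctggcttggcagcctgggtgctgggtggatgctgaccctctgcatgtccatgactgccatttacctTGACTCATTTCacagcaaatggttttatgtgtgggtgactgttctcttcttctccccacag

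RefSeq windows were matched for 9 of the 10 members, in 11 windows. Itgae had no entry. The GC content was 76.0% in the Batf3 window, 44.8% in that of Cd209a and 51.6% in that of Zbtb46, against a median of 52.4% over all 32851 windows. Motifs were searched on both strands. The AP-1 core TGANTCA was present in 6.75% of all windows, and the BATF and IRF composite element, which contains that core, in 33 windows. The Zbtb46 window held both, as 1 overlapping match from 61 to 51 bases before the start. The interferon response element core, in 2.98% of all windows, and the PU.1 core GAGGAAGT, in 2.44%, had no match in the members' windows, and Batf3 and Cd209a had none of the 4 motifs. The RefSeq start of Zbtb46 lies 35038 bases inside its GENCODE 5′ end and that of Batf3 567 bases inside, so other starts were not covered. The Zbtb46 match thus lies within the gene as GENCODE places it, and whether it belongs to a promoter was not tested.

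The cDC1 genes besides Batf3 did not reach the call. Xcr1, the receptor for the chemokine Xcl1 and a cDC1 marker, was at 9.0 and 8.9 TPM with ND, against 3.9 and 5.9 TPM with HFD. Both HFD values were lower, and the log2 fold change was -0.77 (95% interval -1.39 to -0.16, adjusted p = 0.0756, limma). Clec9a, the receptor by which cDC1 sense actin of dead cells, was at 6.0 and 6.1 TPM with ND, against 3.4 and 5.5 TPM with HFD. The second HFD sample was close to ND, and the log2 fold change was -0.40 (95% interval -1.09 to 0.29, adjusted p = 0.291, limma). Clec1b shares 184 exon bases with Clec9a on the same strand, but it was listed at 0.4 to 0.9 TPM in all samples.

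Irf8, which plasmacytoid DCs (pDCs), monocytes and B cells use beside cDC1, was at 94.5 and 97.3 TPM with ND, against 77.5 and 70.0 TPM with HFD. Its adjusted p-value was 0.0394 (limma), but the log2 fold change of -0.38 (SE 0.07) was under the 1.5-fold limit, so it was not called. Itgae, the integrin alpha chain CD103 of cDC1 and some T cells, was at 3.3 and 2.9 TPM with ND, against 2.2 and 1.2 TPM with HFD. Its log2 fold change of -0.63 had a 95% interval of -1.32 to 0.07 (adjusted p = 0.144, limma). Haspin, listed as Gsg2, lies inside Itgae on the opposite strand and shares 0 exon bases with it, and was at 32.8, 36.0, 105.4 and 27.2 TPM. The use of strand in counting was not stated.

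Summed over the subset, the 5 cDC1 members gave 360.9 and 359.4 TPM with ND, against 169.3 and 154.4 TPM with HFD, or 44.9% of ND. Batf3 and Irf8 carried most of this sum. Without them the sum was 18.3 and 17.9 TPM with ND, against 9.5 and 12.6 TPM with HFD (61.0% of ND), and Clec9a and Xcr1 together gave 62.3% of ND. No exact two-sided permutation test of these sums could pass 0.05, since 2 samples against 2 give no p-value below 0.333, the value found here.

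Flt3, the receptor for the growth factor that drives DC development, was at 9.4 and 10.3 TPM with ND, against 5.2 and 8.2 TPM with HFD. Both HFD values were lower, but the log2 fold change of -0.52 had a 95% interval of -1.22 to 0.18 (adjusted p = 0.199, limma). Fscn1, the actin-bundling protein of mature DCs that fibroblasts and endothelial cells also use, was at 79.0 and 72.5 TPM with ND, against 78.7 and 102.8 TPM with HFD. The diets overlapped, and the log2 fold change was 0.25 (95% interval -0.23 to 0.72, adjusted p = 0.335, limma). Cacnb3, a calcium channel beta subunit, stayed between 0.8 and 1.3 TPM, at a log2 fold change of -0.05 (95% interval -0.55 to 0.46, adjusted p = 0.859, limma). Its values rest on only about 51.8 to 73.3 reads per sample.

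In GENCODE vM21 (mm10), Clec9a lies on chromosome 6 (129408862 to 129424763, plus strand) and Xcr1 on chromosome 9 (123852315 to 123862029, minus strand). Irf8 lies on chromosome 8 (120736358 to 120756694, plus strand) and Itgae on chromosome 11 (73090583 to 73147446, plus strand). Zbtb46 lies on chromosome 2 (181387762 to 181459426, minus strand). Chromosome 5 carries Flt3 (147330741 to 147400489, minus strand) and Fscn1 (142960343 to 142973185, plus strand), and chromosome 15 carries Cacnb3 (98630840 to 98644529, plus strand). The depth behind them differed: Clec9a rested on about 181 to 331 reads per sample, but Irf8 on about 6950 to 11300.

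**Figure D2:**
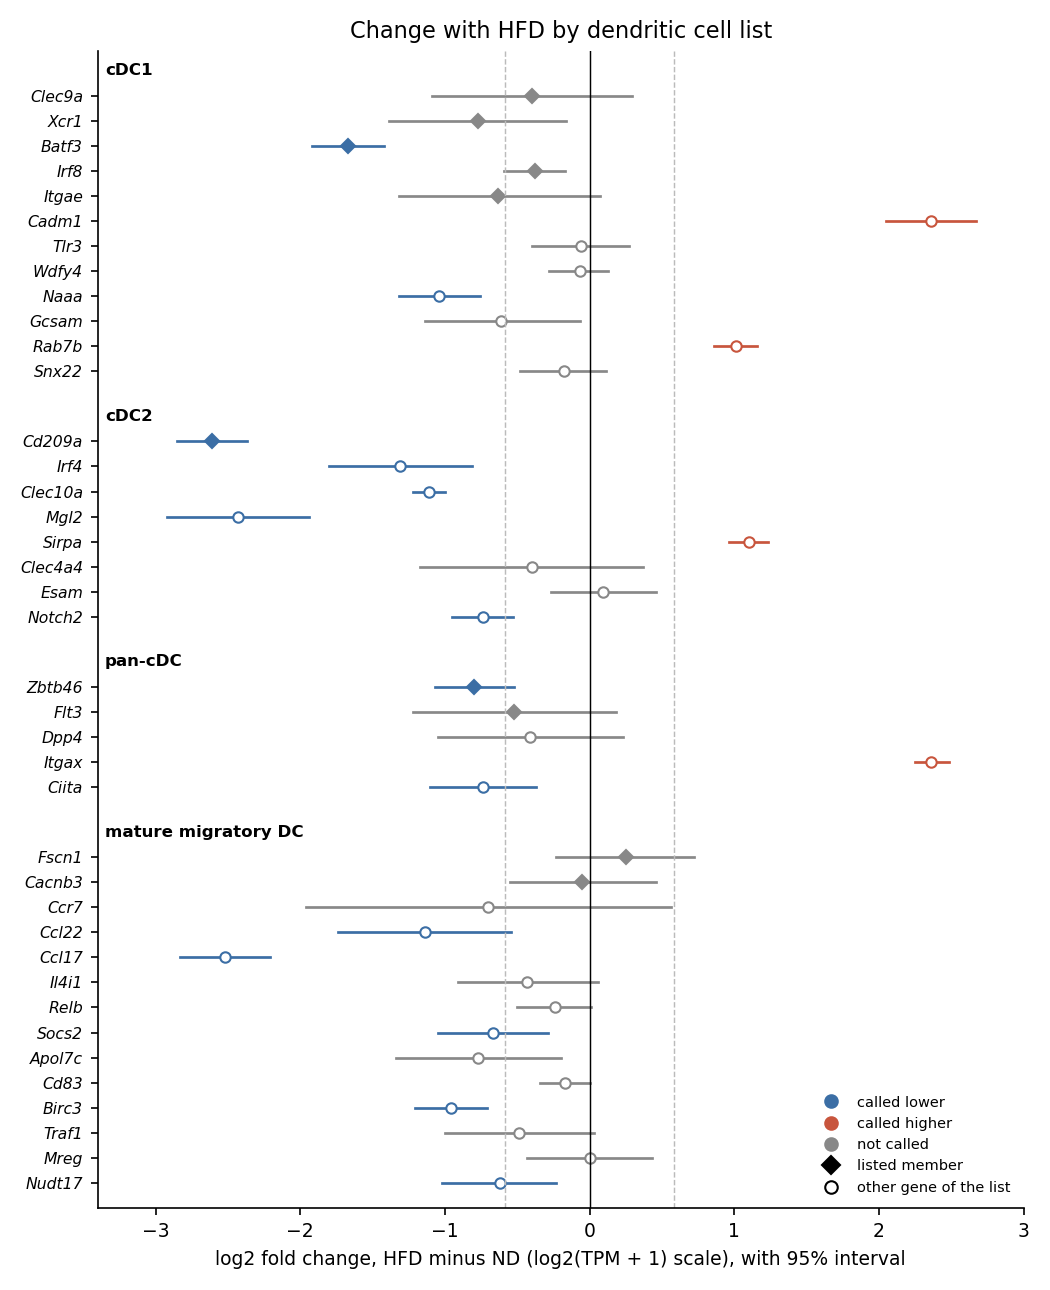
Log2 fold change (HFD minus ND, on the log2(TPM + 1) scale) of each gene, with points for the estimate and bars for the 95% interval of limma (n = 2 per diet). The intervals of Cd209a, Batf3 and Zbtb46 lie below zero and their estimates pass the fold limit, those of Xcr1 and Irf8 lie below zero without a call, and those of Clec9a, Flt3, Itgae, Fscn1 and Cacnb3 cross zero.

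**Figure D3:**
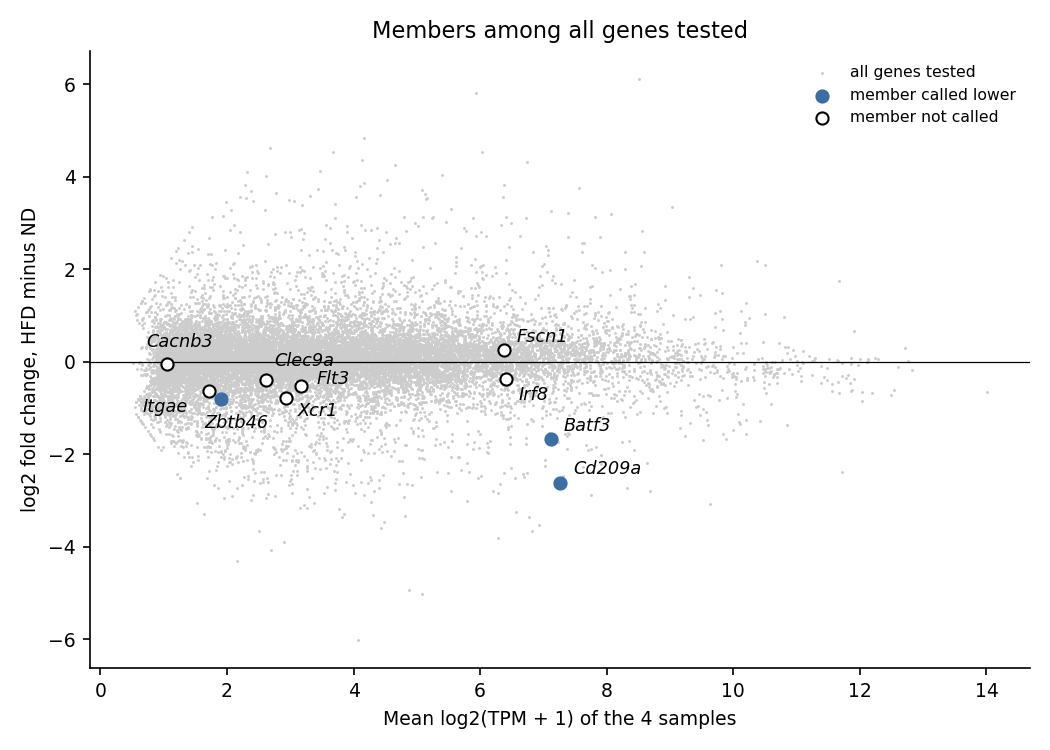
Log2 fold change against mean log2(TPM + 1) for the 16849 genes tested, with the 10 DC genes labelled. Cd209a and Batf3 combine a high level with a large decrease, while Clec9a, Xcr1, Zbtb46, Flt3, Itgae and Cacnb3 lie among the low genes.

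The HFD replicates were not alike for several members. Clec9a, Xcr1 and Flt3 were higher in HFD replicate 2 than in replicate 1, by 0.56, 0.49 and 0.57 on the log2(TPM + 1) scale, whereas Itgae was lower by 0.54. The ND replicates differed by at most 0.14 for any member. Among all genes, 33.7% were higher in HFD replicate 2, against 6 of the 10 members. Without HFD replicate 2, 6 members were called lower, against 9.37% of all genes in that fit, with Clec9a (log2 fold change -0.68, adjusted p = 0.0312), Xcr1 (-1.02, adjusted p = 0.0276) and Flt3 (-0.81, adjusted p = 0.0442) added (limma), the HFD sample that remained being assumed to vary like the ND samples. Genes of several other cell types also differed between the HFD replicates. The sum of 5 T cell genes was 125.6 and 132.0 TPM with ND, against 16.9 and 29.1 TPM with HFD. The sums of 6 fibroblast genes (2836.6 and 5686.2 TPM with HFD) and 4 monocyte genes (77.0 and 101.0 TPM) were likewise higher in HFD replicate 2. That of 6 spermatid genes was lower there (6506.8 and 2005.7 TPM). The part of these genes in the result was not tested.

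Ratios between members were taken within each sample. Cd209a stood 40.8 and 44.2 times above Xcr1 in ND and 16.7 and 9.83 times in HFD, lower in both HFD samples than in either ND sample. The ratio of Irf8 to Batf3 was 0.381 and 0.398 in ND and 0.942 and 0.975 in HFD. Fscn1 stood 1.96 and 1.74 times above Ccr7, the receptor of migrating DCs, in ND and 4.71 and 2.81 times in HFD. These ratios are descriptions without a test.

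Beyond the 10 members, the wider lists held 31 genes, of which 29 were tested, 11 fell, 4 rose and 14 were not called (median log2 fold change -0.49). Among all genes tested, 10.3% were called lower and 8.08% higher. Which cells made the transcripts of these lists was not tested, for the genes that fell as for those that rose. Of the further genes listed for cDC2, 4 of 7 fell and 1 rose. Mgl2, a galactose-binding lectin, was at 235.6 and 240.1 TPM with ND, against 50.1 and 37.3 TPM with HFD (log2 fold change -2.43, adjusted p = 0.00797, limma). Irf4, the cDC2 regulator, fell from 59.7 and 62.6 to 27.9 and 20.8 TPM (-1.31, adjusted p = 0.0199, limma). Irf4 lost its call with the replicate block (adjusted p = 0.0631) and with no filter on low values (0.0769, limma). Clec10a and Notch2 also fell, at -1.11 and -0.74, but Notch2 lost its call without HFD replicate 1 (adjusted p = 0.0641) and without HFD replicate 2 (adjusted p = 0.0519, limma). Sirpa, which cDC2 and macrophages both display, rose from 41.0 and 42.0 to 91.0 and 88.8 TPM (1.10, adjusted p = 0.005, limma). Esam (0.09) was not called.

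Of 7 further cDC1 genes, Naaa fell (-1.04) while Cadm1 (2.36) and Rab7b (1.01) rose, each given as the log2 fold change. Cadm1, an adhesion molecule that is also made outside DCs, was at 0.9 and 1.1 TPM with ND, against 9.3 and 9.2 TPM with HFD. Wdfy4, which cDC1 need for cross-presentation, was at 17.1 and 18.3 TPM with ND, against 16.7 and 16.8 TPM with HFD and was not called (adjusted p = 0.482, limma). Snx22 was not called either, at a log2 fold change of -0.18 (adjusted p = 0.263, limma). Of 3 tested pan-cDC genes, Ciita, the master regulator of MHC class II, fell (-0.74) and Itgax, the CD11c integrin chain that adipose macrophages also carry, rose from 84.1 and 86.4 to 438.8 and 446.8 TPM (2.36, adjusted p = 0.00378, limma). Ciita lost its call with the replicate block (adjusted p = 0.102) and with no filter on low values (0.0943, limma). Bcl11a was not tested.

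Of 12 tested genes of mature, migratory DCs, 5 fell and 0 rose, where 10.3% of all genes were called lower. In 11 of the 13 listed genes both HFD values lay below both ND values, against 32.8% of all genes tested. The chemokines Ccl17 (11.4 and 10.7 TPM in ND, 1.2 and 1.0 TPM in HFD) and Ccl22 (135.1 and 139.7 TPM, 51.7 and 73.9 TPM) fell, at log2 fold changes of -2.52 and -1.14. Ccl22 lost its call with the replicate block (adjusted p = 0.0676) and with no filter on low values (0.127, limma). Birc3 (-0.96), Socs2 (-0.67) and Nudt17 (-0.62) also fell. Socs2 and Nudt17 lost the call with the replicate block (adjusted p = 0.117 and 0.143) and with no filter on low values (0.131 and 0.137, limma). Quantile normalization also ended their calls (adjusted p = 0.14 and 0.142, limma). At a pseudocount of 5 their log2 changes of -0.26 and -0.22 were below the fold required. Without HFD replicate 1, Socs2 at -0.56 was under the fold limit, and Nudt17 lost its call without HFD replicate 1 (adjusted p = 0.116) and without HFD replicate 2 (adjusted p = 0.0892, limma). Ccr7 was not called: it was at 40.3 and 41.6 TPM in ND but at 16.7 and 36.6 TPM in HFD (-0.70, 95% interval -1.96 to 0.56, adjusted p = 0.305, limma). Cd83 was high in all samples, from 777.3 to 916.1 TPM, and was not called. Il4i1 (-0.43, adjusted p = 0.151) and Relb (-0.24, adjusted p = 0.128), a transcription factor of DC maturation, were not called by limma. Lamp3 was not tested.

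**Figure D4:**
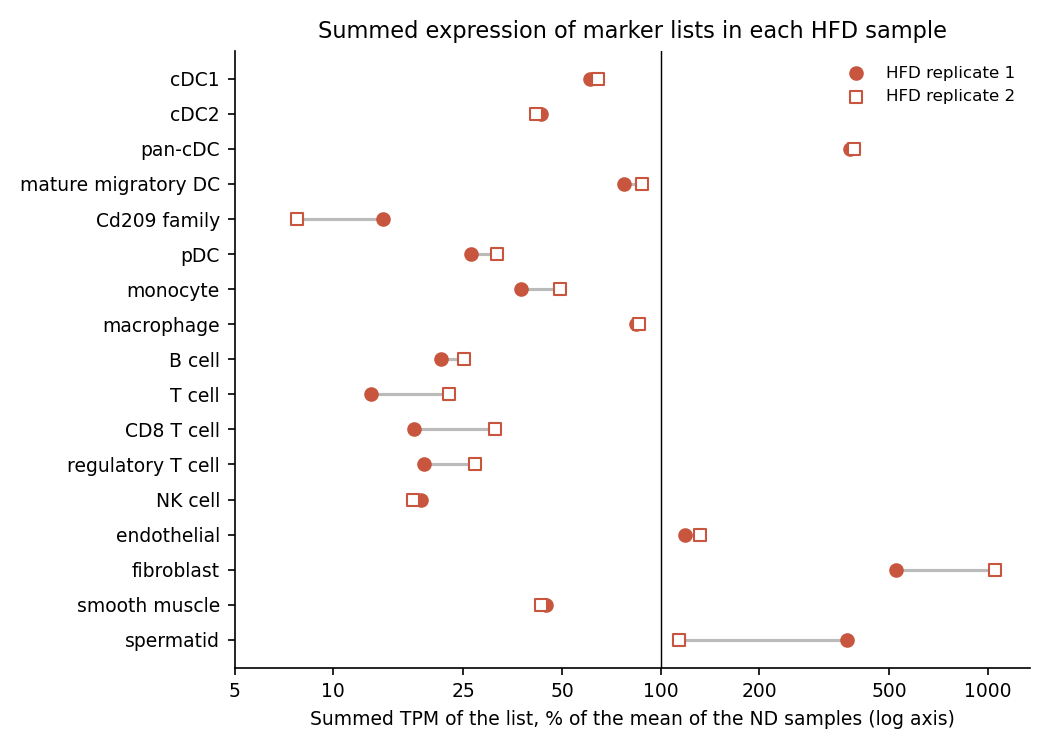
Summed TPM of each marker list in each HFD sample as a percentage of the ND mean (log axis), with one point per HFD sample. The cDC2 list, of which Clec10a is the largest part, stood at 43.3% and 41.6%. The cDC1 list, most of which is Batf3, Naaa and Snx22, stood at 60.8% and 64.3%. The mature migratory list, most of which is Cd83, stood at 77.1% and 87.6%, and the pan-cDC list, most of which is Itgax, at 380% and 390%. The T cell list stood at 13.1% and 22.6% and the fibroblast list at 524% and 1050%.

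Of 14 ligands, partners and relatives of the members, 10 fell, 0 rose and 4 were not called (median log2 fold change -0.89), where 10.3% of all genes were called lower. Xcl1, the ligand of Xcr1 made by NK and T cells, fell from 105.8 and 99.2 to 17.8 and 19.2 TPM (-2.41, adjusted p = 0.00411, limma). The sum of 3 NK cell genes was 35.6 and 39.7 TPM with ND, against 7.0 and 6.6 TPM with HFD, and its part in the Xcl1 result was not tested. Flt3l, the ligand of Flt3, was at 3.4 TPM in both ND samples and 1.7 TPM in both HFD samples (-0.70, adjusted p = 0.0207, limma). Flt3l lost its call with the replicate block (adjusted p = 0.103), with no filter on low values (0.0602) and after quantile normalization (0.0766, limma). At a pseudocount of 5 its log2 change of -0.33 was below the fold required. Itgb7, the chain that pairs with Itgae, fell at -1.74, and its ligand Cdh1 at -0.87. Among AP-1 relatives, Batf (-1.40), Batf2 (-0.91), Jun (-1.55), Junb (-0.64) and Jund (-1.15) fell, and so did the cytokine Csf2 (-1.73). Ccl19, Ccl21a, Id2 and Nfil3 were not called. With the replicate block, Itgb7 (adjusted p = 0.0527), Cdh1 (0.0809), Batf2 (0.0807) and Junb (0.0607) lost the call by limma. No filter on low values ended the same calls (adjusted p = 0.0561, 0.0934, 0.124 and 0.107, limma). After quantile normalization, Cdh1 lost its call (adjusted p = 0.0759, limma) and Junb at -0.42 was below the fold required. At a pseudocount of 5, Cdh1 (-0.33) and Batf2 (-0.44) were below it too. Some of these calls rested on both HFD samples. By limma, Cdh1 (adjusted p = 0.0706 and 0.0503) and Batf2 (0.0586 and 0.0697) lost the call without HFD replicate 1 and without HFD replicate 2, and Csf2 (0.0601) and Junb (0.0564) lost it without HFD replicate 1.

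The relatives of Cd209a in the gene cluster on chromosome 8 fell with it. All 6 of them listed, Cd209b to Cd209g, were called lower, with a median log2 fold change of -3.33. With the replicate number as a block, Cd209b (adjusted p = 0.0631), Cd209d (0.0714), Cd209f (0.058) and Cd209g (0.0507) lost the call by limma. They also lost it with no filter on low values (adjusted p = 0.093, 0.125, 0.0919 and 0.0655, limma). Which cells made the transcripts of this cluster was not tested. Cd209d was at 402.1 and 421.6 TPM with ND, against 60.5 and 20.0 TPM with HFD, and Cd209g at 403.4 and 400.6 TPM with ND, against 44.7 and 21.4 TPM with HFD. These paralogs are alike in sequence, so reads could have been split among them, and the value of each, Cd209a included, is uncertain to that extent.

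Marker genes of other leukocytes were compared in the same fit, where 10.3% of all genes were called lower and 8.08% higher. Of the pDC genes, 3 of 5 tested fell (Siglech, Ly6d and Spib), while Tcf4 and Cox6a2 were not called. The sum of 8 was 62.5 and 63.9 TPM with ND, against 16.6 and 20.0 TPM with HFD. Ly6d carried most of the ND sum, at 41.1 and 42.6 TPM with ND, against 4.7 and 7.8 TPM with HFD. Of the tested marker genes, 2 of 4 for monocytes, 5 of 6 for B cells, 4 of 4 for T cells and 3 of 3 for NK cells fell. The sum of the 4 monocyte genes was 198.8 and 211.2 TPM with ND, against 77.0 and 101.0 TPM with HFD. Of 8 macrophage genes 1 fell (C1qa) and 2 rose (Adgre1 and Cd68). Their sums were 9934.0 and 9571.8 TPM with ND, against 8190.4 and 8392.1 TPM with HFD, and C1qa and C1qb carried most of them. Adgre1 rose from 223.7 and 235.2 to 392.3 and 397.1 TPM, and Cd68 from 873.7 and 847.9 to 1554.1 and 1574.1 TPM. No list had a gene at 0 in all samples, and the part of these cells in the DC results was not tested.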

How the data were processed

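RNA-seq libraries of CD45+ cells from eWAT (2 ND and 2 HFD samples) were trimmed by the authors with Trim Galore 0.4.2 and cutadapt 1.9.1, aligned to mm10 with STAR 2.6.1e, freed of duplicates with Sambamba and counted with featureCounts 1.6.2, per the submitters' processing notes and the methods. The deposited values are TPM per gene, which the authors computed from counts and gene lengths. Annotation and strand setting are not given in the sources used here. TPM are shares of the RNA, so a gene can fall where others rise.

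Genes with at least 1 TPM in at least 2 samples (16849) were compared as log2(TPM + 1) with limma 3.58.1 in R 4.3.3 (lmFit, eBayes with trend, Benjamini-Hochberg), and fold changes on this scale understate those of low genes. The steps were tested on simulated data. Sums were compared by exact permutation. Read numbers are approximate, from steps in the TPM of 198 to 237 short microRNA genes and GENCODE vM21 exon lengths. The members and gene lists were chosen with earlier results of these data known. Named were all members, called genes of the wider lists and uncalled ones with a mean of at least 10 TPM, partners and relatives by role, and the 3 genes closest in pattern to Clec9a, Xcr1 and Cd209a. Alternatives varied the pseudocount, filter, variance trend, scaling, fold limit and block, and left out each sample. Figures were drawn with matplotlib 3.10.9.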

Additional observations from a re-analysis of the deposited data

How the results depend on the processing

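Cd209a and Batf3 kept their direction under every alternative and their call under all but those that left out an ND sample. All calls in the data, 3097 as reported, became 2015 at a pseudocount of 5, 1774 with no filter on low values, 812 with the replicate block and 1604 at a 2-fold limit. Leaving out a sample gave 0 to 4227 calls. The count of 0 came without either ND sample, where 3862 (without ND replicate 1) and 4024 (without ND replicate 2) genes had an unadjusted p under 0.05 by limma. Members called lower ranged from 0 to 6 in this way. Of the wider lists, 11 genes lower as reported became 6 with no filter, 5 with the replicate block and 6 at a 2-fold limit, and 0 to 13 with a sample left out, while genes higher ranged from 0 to 4. The log2 ratios of summed TPM ranged, with a sample left out, from -1.22 to -1.09 for cDC1, -1.65 to -1.53 without Irf8, -0.93 to -0.52 without Irf8 and Batf3, -1.04 to -0.40 for Clec9a and Xcr1, -2.71 to -2.55 for cDC2, -0.98 to -0.45 for pan-cDC and 0.05 to 0.44 for mature DCs. Cacnb3 reversed to 0.13 without HFD replicate 1, within a range of -0.22 to 0.13. The cause of these changes was not tested. The deviations of ND and HFD samples that share a number had a correlation of -0.015, so the block rests on the number alone, and with it 2 members, Cd209a and Batf3, were called lower. Of the values for single genes, 313 kept direction and call and 47 lost the call with all samples in use, and 81 kept both, 79 lost and 3 gained the call with a sample left out.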

Other observations

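The genes whose pattern over the 4 samples was closest to that of the cDC markers, by Euclidean distance of centred log2(TPM + 1) among the 16849 genes tested, were the following. For Clec9a they were Cbx6 (distance 0.0297), Ddit4 (0.0516) and 9530052E02Rik (0.0623), and 98 genes lay within a distance of 0.2. Cbx6 was at 29.4 and 29.0 TPM with ND, against 17.7 and 26.7 TPM with HFD, the same unequal pair of HFD values as Clec9a. For Xcr1 they were LOC102634683 (0.0288), Upk3b (0.0513) and G430095P16Rik (0.0522), with 69 genes within 0.2. For Cd209a they were Defb28 (0.0483), BC035044 (0.107) and Ltb4r1 (0.12), with 15 genes within 0.2. The 4 samples are few for such a comparison, and the likeness is a description only.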
